A study of Saccharomyces cerevisiae with 6 samples.

Results

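The 57 genes described here encode assembly factors of the 60S subunit, the large subunit of the yeast ribosome. They were chosen by name, from knowledge of their roles in the nucleolus, the nucleus and the cytoplasm, with earlier results of these data known. All 57 were found among the 7122 genes of the table. RNA was sequenced from 3 *ths1-C268A* and 3 WT samples of *Saccharomyces cerevisiae*, each strain with replicates A, B and C, to ask how a defect of ThrRS editing changes the transcriptome under heat stress. ThrRS, the product of *THS1*, attaches Thr to its tRNA and clears Ser attached by mistake, and in the *ths1-C268A* strain a Cys of its editing site is replaced by Ala, a change made by CRISPR. The mutant enzyme is also described as less stable at the higher temperature, so loss of editing and loss of enzyme cannot be told apart in these samples. Both strains derive from BY4741, a haploid laboratory strain, and all samples came from cultures that grew in YPD at 30 °C and then spent 2 h at 37 °C. Every value below thus compares strains that had both been heated.

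Ribosome assembly begins in the nucleolus, where RNA polymerase I transcribes most of the ribosomal RNA. Early factors there, among them RNA helicases, Brix domain proteins and RNA-binding proteins, fold this RNA around the ribosomal proteins. In the nucleus the internal spacer ITS2 is removed, and GTPases and a very large AAA ATPase remodel the particle. Export factors then carry the particle to the cytoplasm, where the last factors, some of which hold the places of ribosomal proteins, are released. In yeast, the genes of these factors are known as part of the ribosome biogenesis regulon, whose promoters often hold a PAC element and an RRPE element.

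Sequences of 4 promoters are shown because they stand at the ends of the range of these genes: *NOG1* and *NOP15* had the largest log2 fold changes, and *RRP17* and *NOP53* the lowest. Each is the 250 bases before the start codon on the strand of the gene, read from the R64 genome. Capitals mark the PAC core, GATGAG or its reverse complement CTCATC, and the RRPE core, AAAATTTT, which reads the same on both strands. *NOG1* lies on chromosome XVI and the window is chrXVI:370728-370977, plus strand. The *NOP15* window is chrXIV:418489-418738, minus strand, the *RRP17* window is chrIV:1294443-1294692, plus strand, and the *NOP53* window is chrXVI:277530-277779, minus strand.
*NOG1*: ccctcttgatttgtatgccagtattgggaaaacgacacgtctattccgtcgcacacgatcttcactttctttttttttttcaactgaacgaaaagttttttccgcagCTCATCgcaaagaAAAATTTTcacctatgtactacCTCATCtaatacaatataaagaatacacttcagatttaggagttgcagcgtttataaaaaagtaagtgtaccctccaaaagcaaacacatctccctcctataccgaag
*NOP15*: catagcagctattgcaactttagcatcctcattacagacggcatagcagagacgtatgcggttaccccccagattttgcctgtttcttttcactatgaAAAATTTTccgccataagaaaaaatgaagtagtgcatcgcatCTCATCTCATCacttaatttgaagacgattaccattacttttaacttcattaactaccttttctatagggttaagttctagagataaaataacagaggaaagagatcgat
*RRP17*: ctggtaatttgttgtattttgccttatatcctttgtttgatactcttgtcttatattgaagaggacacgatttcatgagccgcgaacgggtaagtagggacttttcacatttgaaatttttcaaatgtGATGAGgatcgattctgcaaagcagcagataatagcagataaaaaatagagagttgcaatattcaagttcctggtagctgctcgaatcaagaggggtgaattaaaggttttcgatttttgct
*NOP53*: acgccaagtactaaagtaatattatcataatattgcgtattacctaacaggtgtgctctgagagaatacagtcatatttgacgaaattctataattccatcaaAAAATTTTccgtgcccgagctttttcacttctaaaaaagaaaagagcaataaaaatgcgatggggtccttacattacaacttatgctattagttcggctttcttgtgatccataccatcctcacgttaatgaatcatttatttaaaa

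The window of *NOG1* held PAC cores that began 143 and 108 bases before the start codon, with an RRPE core at 130 between them. In *NOP15* the PAC cores began at 110 and 105 and shared 1 base, and the RRPE core began at 152. The window of *RRP17* held a PAC core at 122 and no RRPE core, and that of *NOP53* held an RRPE core at 147 and no PAC core. A match is a description of these letters and not evidence of a bound site.

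Both cores were common before these genes. A PAC core was present in 53 of 57 windows (93.0%), against 16.3% of the windows of 5916 other protein-coding genes and 17.01% of all 5973. An RRPE core was present in 45 windows (78.9%), against 7.995% of other genes and 8.67% of all. The 2 cores occurred together in 42 members (73.7%), against 3.43% of other genes, and *MAK11*, which encodes a WD repeat protein, was the 1 member with neither. The cores also sat at similar distances: a PAC core began between 150 and 51 bases before the start codon in 48 members (84.2%, against 8.11% of other genes), and an RRPE core began between 200 and 101 bases before it in 40 (70.2%, against 5.24%). No 2 members shared a window, and the windows of 15 members overlapped another annotated gene. The plot of core positions shows these distances in bins of 50 bases. For each core, the span given above joins the bins in which most members had it, so its comparison with other genes favours the members.

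**Figure D1:**
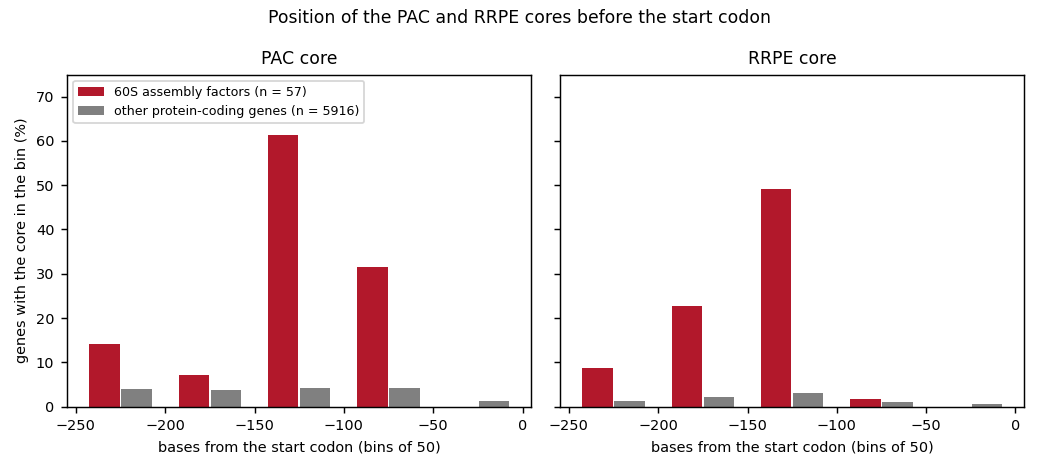
Share of genes with a PAC core (left) or an RRPE core (right) beginning in each bin of 50 bases before the start codon, for the 57 assembly factor genes (red) and 5916 other protein-coding genes (grey). The red bars peak between 150 and 101 bases, at 61.4% for the PAC core and 49.1% for the RRPE core, where the grey bars are 4.11% and 3.11%.

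Levels are deposited FPKM values, in which fragment counts are divided by sample depth and gene length. The samples held 17806318 to 19114041 fragments in genes in *ths1-C268A* and 16597937 to 17761143 in WT, and the lowest count behind any value of a member was 127 fragments, in *RRP17*. Fragments outside the genes analysed made up 10.6 to 13.4% of the FPKM denominator in *ths1-C268A* and 18.3 to 18.7% in WT. Of 4 marker genes deleted wholly or in part in BY4741, every sample listed *URA3*, *LEU2* and *MET17* at 0. *HIS3*, of which BY4741 is known to lack an internal part only, was 253, 271 and 197 FPKM in *ths1-C268A*, against 91.9, 106 and 86.4 FPKM in WT, and was called higher by the comparison described next (log2 fold change 1.33). A point mutation leaves no mark of this kind in *THS1* RNA. In a culture, fewer cells that express a gene and less RNA per cell cannot be told apart. Per-sample values are given for replicates A, B and C in that order. Strains were compared on log2(FPKM + 1) with limma, over the 6447 genes whose mean reached 1 FPKM, and a gene was called at a Benjamini-Hochberg adjusted p under 0.05. Each fold change below is on that log2 scale with its standard error (SE), for *ths1-C268A* over WT with n = 3 each, and the added 1 FPKM understates the change of low genes.

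Part of the 60S assembly program was higher in *ths1-C268A*. Of the 57 members, all of which passed the filter, 18 were higher (31.6%), none was lower and 39 were not called. Over all genes tested, 14.2% were called higher and 12.1% lower. The median log2 fold change of the members was 0.34, and that of all genes tested was -0.0025. The fold change was above 0 for 50 members and below 0 for 7, against 3204 above and 3243 below among all genes tested. Under the equal protein-coding total described below, where the median of all genes was -0.12, 42 members were above 0 and 15 below. As deposited, 33 members were higher and none was lower at an unadjusted p under 0.05 in limma. The share of all genes at that looser threshold was not counted. All *ths1-C268A* samples lay above all WT samples for 30 members (24.5% of all genes tested do so), all lay below for *NOP53* alone (21.1% of all genes), and the groups overlapped for 26. The changes were modest in size, from -0.64 for *RRP17* to 0.77 for *NOG1*, and no member reached a log2 fold change of 1. Mean levels of the members ran between 12.7 and 313 FPKM in *ths1-C268A* and between 19.2 and 313 FPKM in WT.

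The 18 called genes were *NOG1*, *NOP15*, *MAK5*, *NOC2*, *RRS1*, *EBP2*, *SDA1*, *DBP6*, *BRX1*, *SSF2*, *ARX1*, *NOG2*, *DBP10*, *DBP3*, *YTM1*, *NOP7*, *NOC3* and *NSA1*, of which the last 6 are named after their values were seen. A further 13 members missed the threshold with an adjusted p under 0.1 in limma, and the share of all genes in that range was not counted. The calls of *NOG1*, *NOP15*, *MAK5*, *NOC2* and *DBP6* held in all 17 other settings of scaling, filter, model and samples that were run, that of *RRS1* in 16, and those of the other 12 in 5 (*ARX1*), 7 (*NOC3*), 8 (*NOP7*) or 9 to 15. When samples were left out one at a time, the calls of *NOC3*, *NOP7*, *ARX1*, *BRX1* and *NOG2* each held in 1 of 6 fits. With protein-coding genes scaled to the same total in each sample, the median of the members was 0.23 and that of all genes -0.12. In that fit 10 members were higher (17.5%, against 8.12% of all genes) and *NOP53* was lower. Most calls over all genes were then lower: 29.0% of all calls were higher, against 53.9% as deposited. The strains' difference in fragments outside genes, given above, enters that rescaling. Limma-voom on fragments, scaled to each sample's fragments in genes, called 12 members higher (21.1%, against 9.51% of all genes) and *NOP53* lower. Of all its calls, 30.65% were higher. That scale is nearly the same as the rescaling above, with a median of -0.12 for all genes, so these fits are not separate checks of the scale.

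*ths1-C268A* replicate C stood apart from the other mutant samples over these genes. It was the lowest of the mutant samples for 54 of 57 members and the highest for none, while replicate B was the highest for 48 and replicate A for 9. Mutant A was above every WT sample for 51 members, B for 48 and C for 30, and C lay within the WT range for 16 and below it for 11. Over all genes tested the shares above every WT sample were alike, at 38.4% for A, 41.1% for B and 40.5% for C. Set against the mean of WT, the median log2 level of the members was 0.37, 0.54 and 0.12 in *ths1-C268A*, against 0.05, 0.04 and -0.11 in WT, whose replicate C was the lowest WT sample for 45 members. The order of B above A above C held for 46 members and for 16.7% of all genes tested. Without *ths1-C268A* replicate C, 36 members were higher and 12.2% of all genes were. Without *ths1-C268A* replicate B 9 members were higher, and 9, 6 and 6 were higher when WT replicate A, B or C was left out, while 5.52 to 9.32% of all genes were called higher in these fits. Without *ths1-C268A* replicate A 13 members were higher (22.8%, against 16.9% of all genes), and *NOP16* and *RRP17* were lower. Over all genes lower calls were nearly as common as higher ones in that fit, where 50.7% of the calls were higher. The map of all 57 genes by sample shows this pattern gene by gene.

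**Figure D2:**
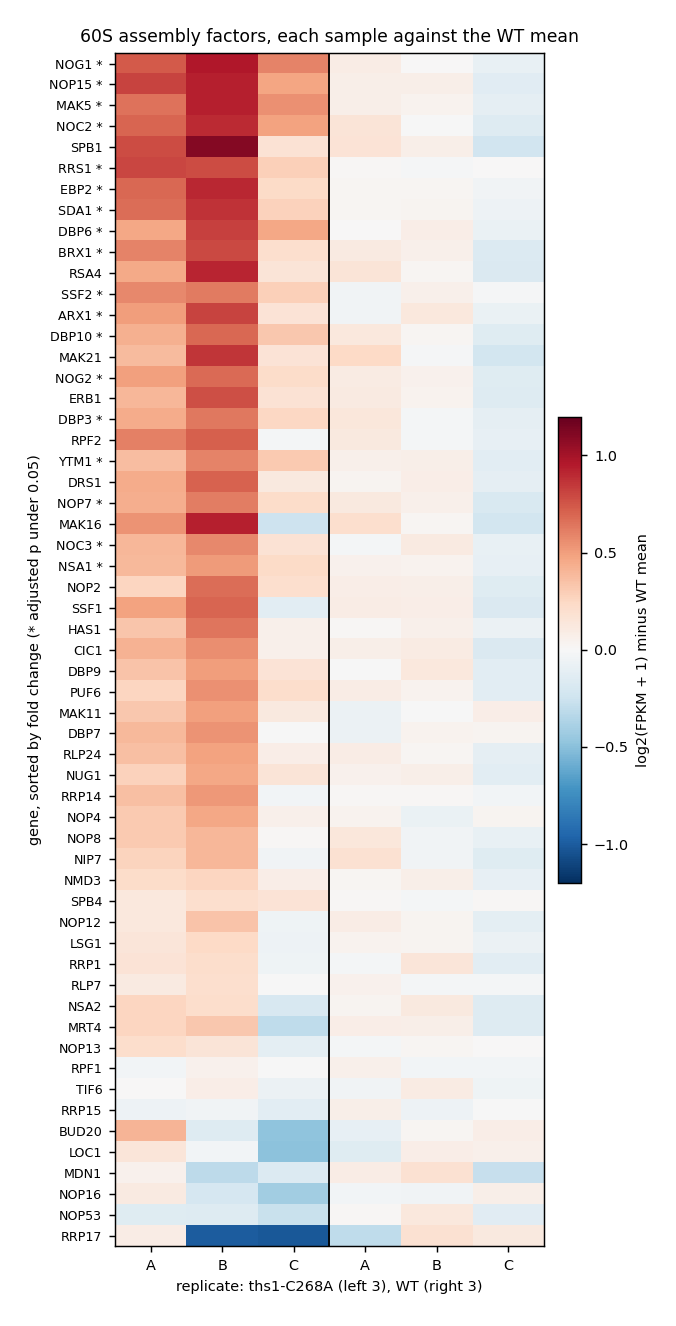
Level of each of the 57 genes (rows, by fold change) in each sample (columns, *ths1-C268A* replicates A, B and C on the left, WT on the right), as log2(FPKM + 1) minus the WT mean of the gene. Asterisks mark the 18 genes with an adjusted p under 0.05 in limma. The columns of *ths1-C268A* A and B are red for most genes, with medians of 0.37 and 0.54, the column of C is paler, with a median of 0.12, and in the bottom rows B and C are mostly blue.

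Of the genes of 9 DEAD-box helicases, ATPases that unwind or clear RNA in the particle, 4 were higher and 5 were not called. The groups did not overlap, with *ths1-C268A* above, for 8 of them, as for 24.5% of all genes tested. The median log2 fold change of the 9 was 0.42. *MAK5*, needed for the pre-60S particle to mature, was 58.3, 70.9 and 54.2 FPKM in *ths1-C268A*, against 38.5, 37.8 and 34.0 FPKM in WT. Every mutant sample lay well above every WT sample, at a log2 fold change of 0.71 ± 0.11 (SE, adjusted p = 0.0047 in limma). *DBP6*, which acts in the earliest pre-60S particles, was 52.4, 67.2 and 52.2 FPKM in *ths1-C268A*, against 37.7, 39.9 and 35.6 FPKM in WT. Its replicates A and C were nearly level in *ths1-C268A*, both above WT, and the fold change was 0.58 ± 0.12 (SE, adjusted p = 0.010 in limma). *DBP10* and *DBP3* also rose, by 0.48 and 0.44 on the log2 scale. *DRS1*, *HAS1*, *DBP9*, *DBP7* and *SPB4* were not called, with log2 fold changes between 0.16 and 0.42. *SPB4*, named after its value was seen, was 57.3, 60.3 and 59.1 FPKM in *ths1-C268A*, against 53.1, 51.5 and 52.9 FPKM in WT. It was the 1 helicase gene that was not lowest in replicate C of *ths1-C268A*, and its groups did not overlap, at 0.16 ± 0.07 (SE, adjusted p = 0.136 in limma).

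The plot of fold changes by role shows all 57 genes with their intervals.

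**Figure D3:**
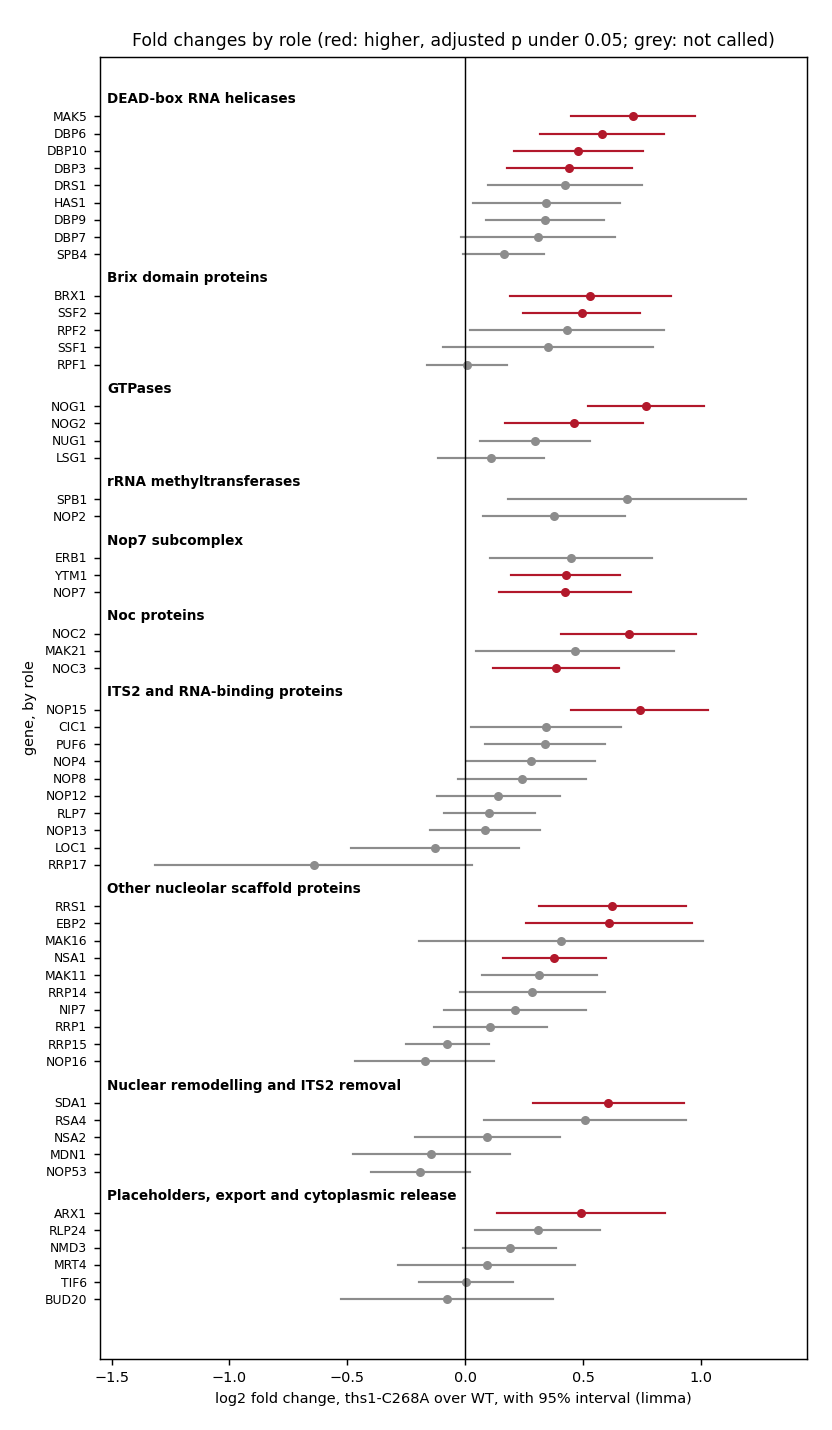
Log2 fold change of each of the 57 genes, *ths1-C268A* over WT, with its 95% interval from limma, in 10 groups by role. Red points are the 18 genes called higher and grey points the 39 not called. All helicase, GTPase, Nop7 and Noc genes lie to the right of 0, of which *LSG1* was left of it with an equal protein-coding total, and the widest interval is that of *RRP17*, from -1.31 to 0.03.

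Of the 4 GTPases, *NOG1* and *NOG2* were higher and *NUG1*, a nuclear GTPase gene, and *LSG1*, whose product releases Nmd3 in the cytoplasm, were not called, at 0.30 and 0.11. *NOG1* (YPL093W, chromosome XVI, 370978 to 372921), which stays on the particle from the nucleolus to the cytoplasm, stood at 102, 119 and 92.2 FPKM in *ths1-C268A*, against 64.6, 60.5 and 56.7 FPKM in WT. The lowest mutant sample was above the highest WT sample, and the log2 fold change of 0.77 ± 0.11 (SE, adjusted p = 0.0029 in limma) was the largest of the 57. *NOG2*, which holds the site that *NMD3* later takes, stood at 65.5, 74.5 and 53.9 FPKM in *ths1-C268A*, against 49.4, 48.0 and 41.7 FPKM in WT. Its groups lay close together without overlapping, and the fold change was 0.46 ± 0.13 (SE, adjusted p = 0.0318 in limma). *NOG2* carries the snoRNA gene *snR191* within its intron, on the same strand, which was listed at 5.05, 3.12 and 3.91 FPKM in *ths1-C268A*, against 6.71, 7.35 and 10.7 FPKM in WT.

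The 5 Brix domain proteins bind rRNA during folding, and 2 of their genes were higher. *BRX1* had 120.4, 139 and 91.7 FPKM in *ths1-C268A*, against 85.6, 82.8 and 70.8 FPKM in WT. Mutant replicate C was nearest to WT and still above all its samples, at a log2 fold change of 0.53 ± 0.15 (SE, adjusted p = 0.0336 in limma). *SSF2* had 47.6, 49.2 and 38.8 FPKM in *ths1-C268A*, against 30.6, 32.9 and 31.4 FPKM in WT, and its near-identical copy *SSF1* had 66.8, 78.0 and 43.4 FPKM in *ths1-C268A*, against 50.8, 50.4 and 42.2 FPKM in WT. *SSF2* was higher, at 0.49 ± 0.11 (SE, adjusted p = 0.0144 in limma), and its groups did not overlap, while *SSF1* was not called, at 0.35 ± 0.20 (SE, adjusted p = 0.209 in limma), with mutant replicate C inside the WT range. Their coding sequences are both 1362 bases long and share 1254 bases (92.1%) in place, with a longest identical run of 92 bases, so fragments of one may have been counted for the other. The ratio of *SSF1* to *SSF2* was 1.40, 1.59 and 1.12 in *ths1-C268A*, against 1.66, 1.53 and 1.34 in WT. The strains overlapped in this ratio, and the difference in its log2 of -0.15 had p = 0.5 in an exact two-sided permutation test, whose smallest possible p is 0.1. *RPF2* was not called at 0.43, nor was *RPF1*, which at 0.01 had almost the same mean in both strains.

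In the Nop7 subcomplex, a stable complex of early and middle particles, *YTM1* and *NOP7* were called higher at 0.43 and 0.42 on the log2 scale, *NOP7* not in most other settings, and *ERB1* was not called at 0.45 (SE 0.15, adjusted p = 0.0582 in limma). All 3 had no overlap between groups, with *ths1-C268A* above, as for 24.5% of all genes tested. Among the Noc proteins, which act in pairs around Noc2, *NOC2* was 74.95, 85.6 and 64.2 FPKM in *ths1-C268A*, against 51.04, 45.5 and 41.0 FPKM in WT. The groups were separate, at 0.69 ± 0.13 (SE, adjusted p = 0.0071 in limma). *NOC3*, its partner in later particles, was called at 0.39, though not in most other settings, and *MAK21*, its partner in early ones, was not called at 0.47. The genes of the rRNA methyltransferases *SPB1* and *NOP2* were not called. *SPB1*, named after its value was seen, was 40.1, 50.2 and 26.0 FPKM in *ths1-C268A*, against 25.8, 24.0 and 19.3 FPKM in WT. Its samples did not overlap, but mutant replicate C lay just above WT replicate A, and the fold change of 0.69 ± 0.22 (SE, adjusted p = 0.0503 in limma) was the fifth in size and missed the threshold.

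Of 10 genes of ITS2-binding and other RNA-binding proteins, *NOP15* was the 1 that was higher, and the median of the group was 0.19. *NOP15* (YNL110C, chromosome XIV, 417826 to 418488), which binds at ITS2, stood at 169, 184 and 134 FPKM in *ths1-C268A*, against 100.7, 100.8 and 87.3 FPKM in WT. All mutant samples were far above WT, at 0.74 ± 0.13 (SE, adjusted p = 0.0059 in limma). *CIC1*, *PUF6*, *NOP4*, *NOP8*, *NOP12*, *RLP7* and *NOP13* were not called, with log2 fold changes from 0.34 for *CIC1* to 0.08 for *NOP13*. Of these, Cic1 and Rlp7 bind at ITS2, and Puf6 is a partner of Loc1. *LOC1*, an rRNA-binding protein also known for *ASH1* mRNA localization, had 119.6, 106 and 76.6 FPKM in *ths1-C268A*, against 97.8, 115 and 113 FPKM in WT. Mutant replicate A lay above all WT samples and C below all of them, and the value of -0.13 ± 0.16 (SE, adjusted p = 0.563 in limma) was not called. *RRP17* (YDR412W, chromosome IV, 1294693 to 1295400), an exonuclease that trims rRNA, had 20.3, 9.01 and 8.88 FPKM in *ths1-C268A*, against 15.2, 21.8 and 20.7 FPKM in WT. Mutant B and C were under every WT sample, mutant A was within the WT range, and the lowest fold change of the 57, -0.64 ± 0.29 (SE, adjusted p = 0.135 in limma), was not called. The adjusted p of *RRP17* passed the threshold without mutant replicate A.

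Of 10 other nucleolar scaffold proteins, *RRS1*, *EBP2* and *NSA1* were higher. *RRS1*, which with Rpf2 brings in the 5S RNP, had 127, 125 and 88.2 FPKM in *ths1-C268A*, against 72.7, 71.5 and 72.2 FPKM in WT. The WT samples were within 2 FPKM of each other and every mutant sample was above them, at 0.62 ± 0.14 (SE, adjusted p = 0.0141 in limma). *EBP2*, a binding partner of Brx1, had 121, 140.2 and 87.6 FPKM in *ths1-C268A*, against 75.7, 75.4 and 72.2 FPKM in WT. Here mutant replicate C was close to WT while A and B were far above it, and the fold change was 0.61 ± 0.15 (SE, adjusted p = 0.0233 in limma). *NSA1* rose by 0.38. *MAK16*, *MAK11*, *RRP14*, *NIP7* and *RRP1* lay between 0.11 and 0.41 and *RRP15* at -0.08, none of them called. *NOP16*, a component of nucleolar pre-60S particles, had 176, 141 and 122 FPKM in *ths1-C268A*, against 159, 159 and 172 FPKM in WT. Mutant replicate A was above every WT sample and B and C were below, and the value of -0.17 ± 0.13 (SE, adjusted p = 0.340 in limma) was not called.

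**Figure D4:**
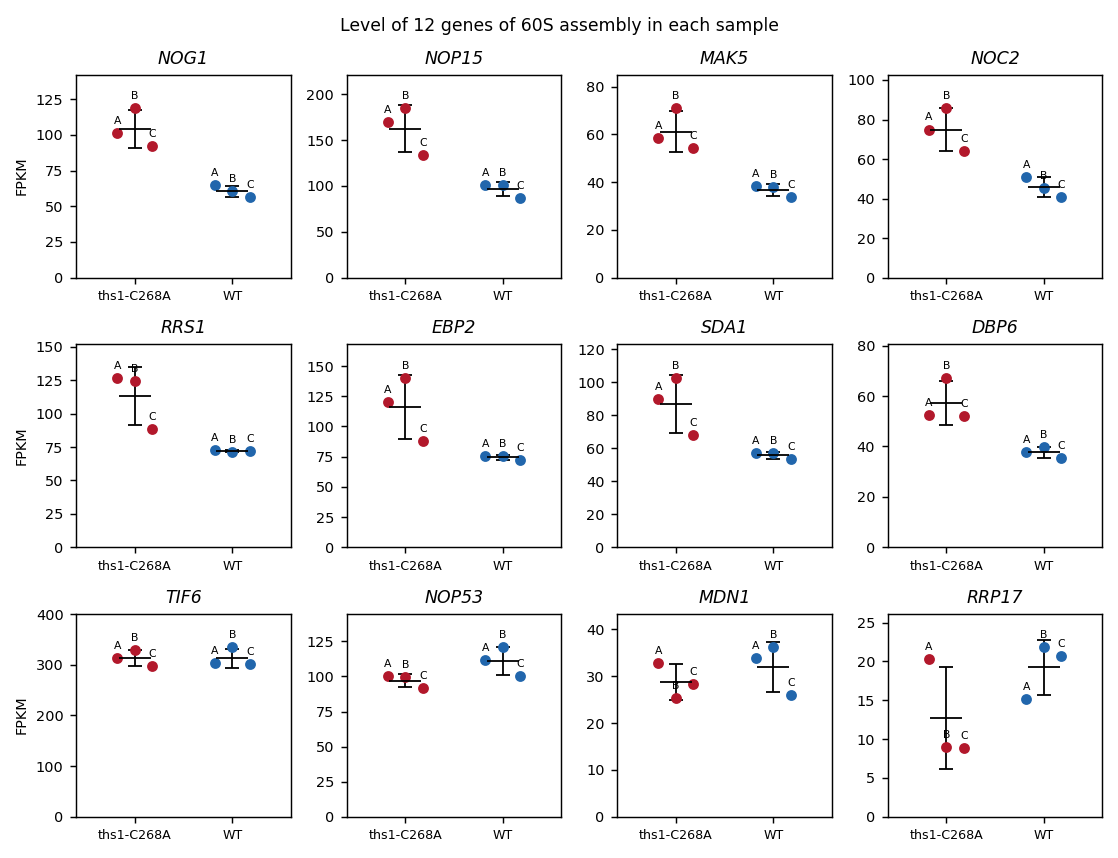
FPKM of 12 genes in each sample, with *ths1-C268A* (red) left of WT (blue), letters for the replicates, and bars for the mean and SD (n = 3 each). In the upper 8 genes every red point lies above every blue point. *TIF6* overlaps, with means of 313 FPKM in both strains, as do *MDN1* and *RRP17*, and the red points of *NOP53* lie just below the blue ones.

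The 5 factors of nuclear remodelling and ITS2 removal split by gene. *SDA1*, a nuclear factor needed to form the subunit, had 89.6, 103 and 67.9 FPKM in *ths1-C268A*, against 56.9, 57.1 and 53.5 FPKM in WT. WT samples were tight and all mutant samples were above them, at 0.61 ± 0.14 (SE, adjusted p = 0.0173 in limma). *MDN1*, the AAA ATPase that strips factors from the particle and the longest gene of the set at 14733 bases, had 32.9, 25.3 and 28.2 FPKM in *ths1-C268A*, against 33.9, 36.1 and 26.1 FPKM in WT. The samples overlapped freely, and -0.14 ± 0.15 (SE, adjusted p = 0.483 in limma) was not called. *NOP53* (YPL146C, chromosome XVI, 276162 to 277529), which recruits the exosome to ITS2, had 100.2, 99.3 and 91.6 FPKM in *ths1-C268A*, against 112, 121 and 100.5 FPKM in WT. It was the 1 member whose mutant samples were all below WT, with the nearest values under 1 FPKM apart, and its value of -0.19 ± 0.09 (SE, adjusted p = 0.151 in limma) was not called as deposited. *RSA4*, a substrate of Mdn1, was not called at 0.51, nor was *NSA2* at 0.09.

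Of the 6 placeholders, export factors and cytoplasmic release factors, only *ARX1* was called. *ARX1*, an export factor near the exit tunnel, had 42.8, 53.4 and 33.9 FPKM in *ths1-C268A*, against 29.2, 32.8 and 28.3 FPKM in WT. Its mutant replicate C was about 1 FPKM above the highest WT sample, and 0.49 ± 0.16 (SE, adjusted p = 0.0491 in limma) lay just under the threshold. *RLP24*, which holds the place of a ribosomal protein that joins in the cytoplasm, had 197, 215 and 162 FPKM in *ths1-C268A*, against 164, 156 and 142 FPKM in WT. Mutant A and B were above WT and C was within its range, at 0.31 ± 0.12 (SE, adjusted p = 0.0824 in limma). *NMD3*, the adaptor that links the particle to the exportin Crm1, had 146, 149.8 and 132 FPKM in *ths1-C268A*, against 127, 131 and 116 FPKM in WT. The groups were just separate, at 0.19 ± 0.09 (SE, adjusted p = 0.138 in limma). *MRT4*, the placeholder at the base of the P stalk, had 80.5, 84.0 and 54.1 FPKM in *ths1-C268A*, against 71.2, 70.6 and 60.2 FPKM in WT. Mutant C was the lowest of all 6 samples and A and B the highest, at 0.09 ± 0.16 (SE, adjusted p = 0.704 in limma). *TIF6*, which keeps the small subunit from joining and had the highest mean of the 57 genes, had 313, 329 and 297 FPKM in *ths1-C268A*, against 303, 334 and 301 FPKM in WT. The strains were interleaved, with a log2 fold change of 0.0022 and a 95% interval from -0.20 to 0.20. *BUD20*, a shuttling export factor named after its value was seen, had 222, 149 and 119 FPKM in *ths1-C268A*, against 155, 169 and 176 FPKM in WT. Mutant A was above all WT samples and B and C below them, at -0.08 ± 0.20 (SE, adjusted p = 0.796 in limma). The plot of FPKM for 12 genes sets members that were higher beside those that were not.

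Within the members, fold change and gene length were related. Spearman's rank correlation was 0.42 over the 57 members and 0.49 without *MDN1*, and 0.37 over 6176 protein-coding genes. Genes are not independent replicates, and no test was run. Of 40 members above 1000 bases 15 were higher (37.5%, against 21.1% of protein-coding genes of that length), and of 17 shorter members 3 were (17.6%, against 6.49%). With a correction of each sample for length and GC content, 15 members were higher (26.3%, against 13.6% of the protein-coding genes fitted). Of these members 14 were among the 18, and *RLP24* was the gene gained. The median of the members was then 0.29. Another limit was overlap with other genes, since the strand of the reads is not given in the sources used here. *HAS1*, *RRP15*, *RRP14*, *NOP13*, *NOP4* and *RRP17* each overlap an open reading frame on the opposite strand, and these frames were listed at 0 to 11.3 FPKM.

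Fold changes were also set beside the promoter cores, with no test. Members with both cores had 15 of 42 called and a median of 0.38, and the 11 with the PAC core alone had 2 called (*MAK5* and *DBP6*) and a median of 0.14. The 3 with the RRPE core alone were *SPB1*, *NSA1* and *NOP53*, of which *NSA1* was called, and *MAK11* with neither was not called at 0.31. Among genes outside the set, 53 of 200 with both cores were higher (26.5%, median 0.18), against 659 of 4592 with neither core (14.4%, median -0.0033). Without the other assembly and RNA polymerase I lists, 29 of 142 genes with both cores were higher (20.4%, median 0.13). *TIF6* and *MDN1* hold both cores and were not called, while *MAK5*, with the third largest fold change, holds no RRPE core in this window.

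A list of 36 other genes of 60S assembly was taken from textbook knowledge, also with earlier results of these data known. It gave 11 higher (30.6%) and 1 lower (2.78%), with a median of 0.18. Over all genes tested, 14.2% were higher and 12.1% lower. The smallest p among the higher genes was that of *REH1*, a cytoplasmic paralogue of the recycling factor *REI1* (log2 fold change 0.47, adjusted p = 0.0050 in limma). *RRP5* (0.58), *PWP1* (0.75) and the exonuclease gene *RAT1* (0.41) followed. *SDO1*, which acts in the release of Tif6, had 55.8, 48.2 and 46.0 FPKM in *ths1-C268A*, against 72.2, 74.6 and 67.6 FPKM in WT. It fell by 0.51 on the log2 scale (SE 0.10, adjusted p = 0.0084 in limma). *RIA1*, whose GTPase acts with Sdo1, was higher at 0.35 (adjusted p = 0.0497 in limma). The list of 55 small subunit processome and 40S assembly genes gave 24 higher (43.6%) and none lower, with a median of 0.39. The groups did not overlap, with *ths1-C268A* above, for 31 of its genes, against 24.5% of all genes tested. The 14 RNA polymerase I genes gave 4 higher (*RPA43*, *RPA49*, *RPA135* and *RPA190*, 28.6%) and 1 lower (*RRN9*, 7.14%). Their fold changes were split, with 8 above 0 and 6 below.

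The genes of 60S ribosomal proteins, the parts that these factors assemble, had a median below 0. Of 81 such genes, *RPL8A* was higher and 13 were lower (16.0%, against 12.1% of all genes), and the median log2 fold change was -0.25. These values are not corrected for length, and over protein-coding genes fold change rose with length (Spearman's rank correlation 0.37). The part of length in the median of this group was not tested. Many of them are pairs of near-identical paralogues whose fragments may be shared. A PAC core stood before 8.86% of 79 of these genes and an RRPE core before 7.59%. By sample, their median level, less the mean of WT, was -0.13, -0.12 and -0.40 in *ths1-C268A*, against 0.05, 0.07 and -0.11 in WT. By these medians, replicate C of each strain was the lowest for both gene groups. The 40S assembly list stood at 0.39, 0.57 and 0.13 in *ths1-C268A*, and the RNA polymerase I list at 0.23, 0.38 and -0.15, in the sample order of the members. A list of 20 stress genes of the Msn2 and Msn4 factors stood at -0.13, -0.24 and 0.08 in *ths1-C268A*, against -0.04, -0.02 and 0.02 in WT. Of these, *HSP26* and *HSP104* were higher and *TPS1*, *ALD3*, *TPS2* and *HXK1* were lower. Mutant replicate C was thus the highest mutant sample for the stress list and the lowest for the members. The part of these sample differences in the fold changes was not tested beyond leaving each sample out. The plot of list medians shows each sample.

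**Figure D5:**
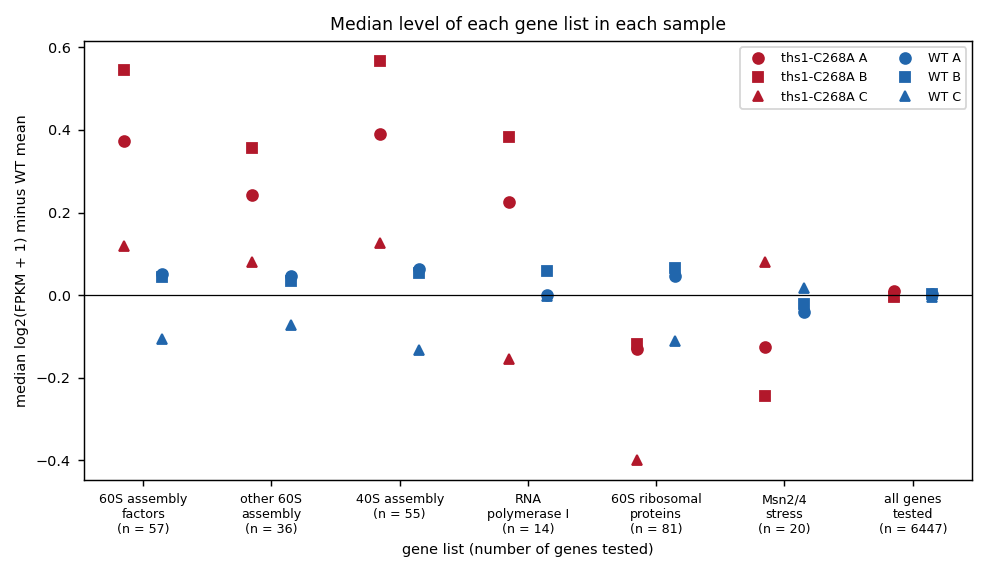
Median log2(FPKM + 1) minus the WT mean over each gene list, for each *ths1-C268A* sample (red, left of each pair) and WT sample (blue). For the 60S assembly factors *ths1-C268A* A, B and C stand at 0.37, 0.54 and 0.12, for the 60S ribosomal proteins at -0.13, -0.12 and -0.40, and for all genes tested every sample is near 0.

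Regulators of these genes were listed as well. *TOD6* and *DOT6* encode repressors that bind the PAC element, and both were higher. *TOD6* had 76.7, 89.4 and 70.7 FPKM in *ths1-C268A*, against 46.7, 47.1 and 40.4 FPKM in WT. All mutant samples were above all WT samples, at a log2 fold change of 0.80 ± 0.11 (SE, adjusted p = 0.0027 in limma). *DOT6* had 278, 310.4 and 326 FPKM in *ths1-C268A*, against 232, 225 and 214 FPKM in WT. Here mutant replicate C was the highest sample, whereas it was the highest mutant sample for no assembly factor gene, and the fold change was 0.44 ± 0.09 (SE, adjusted p = 0.0105 in limma). *SCH9*, a kinase of the TORC1 pathway, was higher at 0.49 (adjusted p = 0.0066 in limma), a call that held in all 17 other settings. *SFP1*, an activator of the regulon, was called at 0.35 (adjusted p = 0.0436 in limma) and *IFH1*, a coactivator at ribosomal protein genes, at 0.40 (adjusted p = 0.0388). These calls were lost in 10 and 11 of the 17 other settings, among them the equal protein-coding total (adjusted p = 0.114 for *SFP1* and 0.0898 for *IFH1* in limma). *STB3*, whose product binds the RRPE element, was not called at 0.08, nor were *CRF1* (-0.16), *FHL1* (-0.10), *TOR1* (0.11), *RAP1* (-0.06) and *TOR2* (0.02). The signs of *STB3*, *TOR1* and *TOR2* turned negative with an equal protein-coding total.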

How the data were processed

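RNA was sequenced from 3 *ths1-C268A* and 3 WT samples, which the paper calls biological replicates, and strains were assigned from the sample titles. Libraries of kit-purified total RNA were sequenced on an Illumina platform by a commercial service. The authors deposited 1 table of FPKM values with gene coordinates and coding lengths. The submitters' processing notes name HISAT2 without a version, and the sources used here do not give the counting tool, the annotation, strandedness or poly(A) selection. FPKM multiplied by length gave whole fragments, within 0.01, for 100% of the values, and these limit the precision of low genes. A few genes are not reported here. In a check for duplicated libraries, chi-square per degree of freedom between replicates was 39.4 to 53.2 in *ths1-C268A* and 7.72 to 25.0 in WT.

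The strains were compared with limma 3.58.1 in R 4.3.3 (linear model on strain, empirical Bayes with a variance trend) with two-sided p, on log2(FPKM + 1) of the 6447 genes whose mean reached 1 FPKM, and Benjamini-Hochberg adjustment ran over all of them. For the RNA-seq comparison the paper names no test. Scripts were tested on simulated fragments. Alternatives used a pseudocount of 0.1 or 5, genes without a filter or with means from 10 FPKM up, median-ratio scaling, an equal protein-coding total, protein-coding genes only, no trend, limma-voom on fragments, a replicate block, a loess correction for length and GC content (span 0.5), each sample left out, an adjusted p under 0.01, and a log2 fold change of at least 1.

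The members and lists were chosen with earlier results of these data known. Per-sample values are given for the 10 called members with the largest fold changes and groups that do not overlap, the 5 with the lowest fold changes, and 10 members of the main steps (*NOG1*, *NOG2*, *MDN1*, *TIF6*, *NMD3*, *ARX1*, *RLP24*, *MRT4*, *SSF1* and *SSF2*), 22 genes in all. Others are named by role, from the up to 4 smallest p values in the other assembly list, or after their values were seen. Promoter windows were read from the RefSeq R64 genome, whose coordinates matched the table for all 57 members, and searched on both strands.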

Additional observations from a re-analysis of the deposited data

How the results depend on the processing

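Counts of higher members ran from 10 to 22 across the settings that kept all samples and the threshold, with 10 under an equal protein-coding total and 22 with a replicate block (683 genes higher and 593 lower in all). The sample titles do not say whether the replicate letters pair the samples. Over all genes tested, same-letter deviations correlated at -0.23, 0.06 and -0.01 for A, B and C. Correlations between different letters ran from -0.20 to 0.21. Over the members, replicate C was the lowest sample of its strain for 54 in *ths1-C268A* and for 45 in WT. These values cannot decide whether the letters pair the samples. Leaving out 1 sample at a time gave 6 to 36 higher members and 0 to 2 lower ones, 356 to 1088 higher and 290 to 1057 lower among all genes, and 1 to 15 higher and 1 to 2 lower in the other 60S assembly list. At an adjusted p under 0.01, 4 members, 296 higher and 248 lower genes and 1 higher gene of the other list were left. At a log2 fold change of at least 1, 0 members, 78 higher and 134 lower genes, and 0 higher and 0 lower genes of the other list were left. An equal protein-coding total gave 1 lower member, 524 higher and 1285 lower genes, and 7 higher genes of the other list. Limma-voom on fragments gave 12 higher and 1 lower member, 613 higher and 1387 lower genes, and 2 lower genes of the other list. The length and GC correction gave 7 higher and 2 lower genes of that list.

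Signs turned only for genes that were not called. Of the members, *LSG1*, *MRT4*, *NOP13*, *NSA2*, *RLP7*, *RPF1*, *RRP1* and *TIF6* were below 0 both with an equal protein-coding total and with limma-voom. The scales of these fits are nearly the same, and each fit left 42 of 57 above 0. *RPF1* was also below 0 with median-ratio scaling, and *RRP15* was above 0 with the length and GC correction. With an equal protein-coding total the log2 fold changes were -0.025 for *MRT4*, -0.114 for *TIF6*, -0.0014 for *TOR1*, -0.032 for *STB3* and -0.089 for *TOR2*, and with limma-voom -0.031, -0.114, -0.0012, -0.033 and -0.092. With the length and GC correction *TOR1* was at -0.179, *TOR2* at -0.266 and *BUD20* at 0.104, and with median-ratio scaling *TIF6* was at -0.0071. Leaving out 1 sample at a time gave -0.024 to 0.289 for *MRT4*, -0.034 to 0.051 for *TIF6*, -0.264 to 0.055 for *LOC1*, -0.320 to 0.128 for *BUD20* and -0.020 to 0.056 for *TOR2*. The causes were not tested. With 3 samples a strain, genes whose mutant samples spread widely have wide intervals, from -1.31 to 0.03 for *RRP17* and from -0.20 to 1.01 for *MAK16*.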
